A study of Mus musculus with 8 samples.

Results

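The Sprouty genes Spry1, Spry2, Spry3 and Spry4, the Spred genes Spred1, Spred2 and Spred3, and Il17rd, also known as Sef, are 8 of the 22180 genes that could be named on the arrays. They were chosen by family, and each was read by 1 probe set carrying its symbol alone. The samples were 8 mouse embryos of 1 litter at E14.5 (E, embryonic day). Both kidneys of an embryo were pooled into 1 RNA sample and hybridised to a 1-colour array. The genotype Grb2 UB-cKO (Grb2_cKO below, 4 embryos) stands for a knockout of Grb2 limited to the ureteric bud, the epithelium that branches into the collecting ducts. The other 4 embryos were wild-type controls. The sources used here do not give the Cre driver, the strain or the alleles, and the labels name no treatment. The comparison asks what the loss of Grb2 in this epithelium does to transcripts of the whole embryonic kidney.

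GRB2 is an adaptor protein that couples activated receptor tyrosine kinases to the guanine exchange factor SOS and so to RAS and ERK. Sprouty and Spred proteins are inhibitors of the same route. Several of their genes, though not each of the 7, are known to be induced by the signal. The products of those genes then dampen it, which makes them both brakes and readouts of FGF and RET signalling. Sprouty proteins carry a cysteine-rich C-terminal domain, become phosphorylated on tyrosine, and can bind GRB2 and CBL. Spred proteins share that domain, add an EVH1 domain, and bring neurofibromin, a RAS GTPase-activating protein, to the membrane. IL17RD is a transmembrane protein that limits FGF receptor and ERK signalling. In the kidney Spry1 is known for restraining the response of the ureteric bud to GDNF.

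The gene that was targeted was checked first. Grb2 was at 8.68, 8.65, 8.61 and 8.66 on the log2 scale in the 4 controls and at 8.36, 8.17, 8.22 and 8.06 in the 4 Grb2_cKO kidneys. Every Grb2_cKO value lay below every control value. The difference, Grb2_cKO minus control, was -0.45 log2 units (SE 0.07, adjusted p = 0.0017), from kidneys in which cells outside the ureteric bud keep the gene by design. The sources used here do not say whether its probe set reads the deleted exons. With the mean of Y-linked genes, described next, as a covariate, Grb2 was at -0.40 and did not pass (adjusted p = 0.10). Adjusted p-values are from limma with the Benjamini-Hochberg method over all 22180 genes, and the threshold was 0.05.

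The groups also differed in the sex of the embryos. The mean of 3 Y-linked genes was 9.94 to 10.1 in the 4 Grb2_cKO kidneys, 9.94 in control replicate 3, and 4.09 to 4.24 in the other controls. Each of the 8 genes is therefore also given from a fit with this mean as a covariate, in which control replicate 3 carries most of the comparison. Markers of cell types moved with the groups as well. The marker lists were also written with earlier results of these data known. By size of fall among all genes, the tip markers Slco4c1, Ros1 and Ret ranked 2, 4 and 5. The trunk marker Calb1 ranked 3 and the nephron progenitor marker Six2 ranked 6. The means and counts of these lists are therefore descriptive and not an independent measure of cell types. Across controls the mean level of 8 ureteric tip markers ran from 8.83 to 9.02, against 7.36 to 7.72 across Grb2_cKO kidneys, with 7 lower, and that of 8 nephron progenitor markers was 10.5 to 10.6 and 9.19 to 9.78, with 7 lower. The mean level of 11 trunk and collecting duct markers was 8.78 to 8.91 and 8.04 to 8.35, with 7 lower. For 8 stroma markers the mean ran from 10.4 to 10.6 in controls and from 11.03 to 11.2 in Grb2_cKO, with 7 higher. The means of 8 macrophage markers (7.59 to 7.77 and 8.47 to 8.81), 8 endothelium markers (10.04 to 10.1 and 10.3 to 10.6) and 6 erythroid markers (6.72 to 7.37 and 7.64 to 8.08) were also higher, with 6, 6 and 4 members past the threshold. The mean of 3 glia and neuron markers overlapped between the groups, at 6.23 to 6.63 and 6.07 to 6.39, with 1 lower. In RNA of whole kidneys, fewer cells of a type and less RNA per cell cannot be told apart. The part of these shifts in the results on Sprouty and Spred genes was not tested.

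Of the 8 genes, 5 fell (Spry1, Spry4, Spred1, Spred2 and Il17rd), 1 rose (Spry3), and Spry2 and Spred3 did not pass. Over all genes 28.1% passed the threshold, 14.3% lower and 13.7% higher in Grb2_cKO. The median difference of the 8 was -0.46 log2 units, and that of all genes was 0.0058. Control and Grb2_cKO values stood clear of each other for 7 of the 8, all but Spred3, as was so for 31.2% of all genes. In the fit with the Y-linked covariate, 3 of the 8 were past the threshold (Spry1, Spred1 and Il17rd), where 5.62% of all genes were. All 6 changed members kept their sign, but so did all changed genes of the pathway lists below (19, 15, 11 and 7 genes). Keeping the sign is therefore not particular to the 8, and its share over all genes was not counted.

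**Figure D1:**
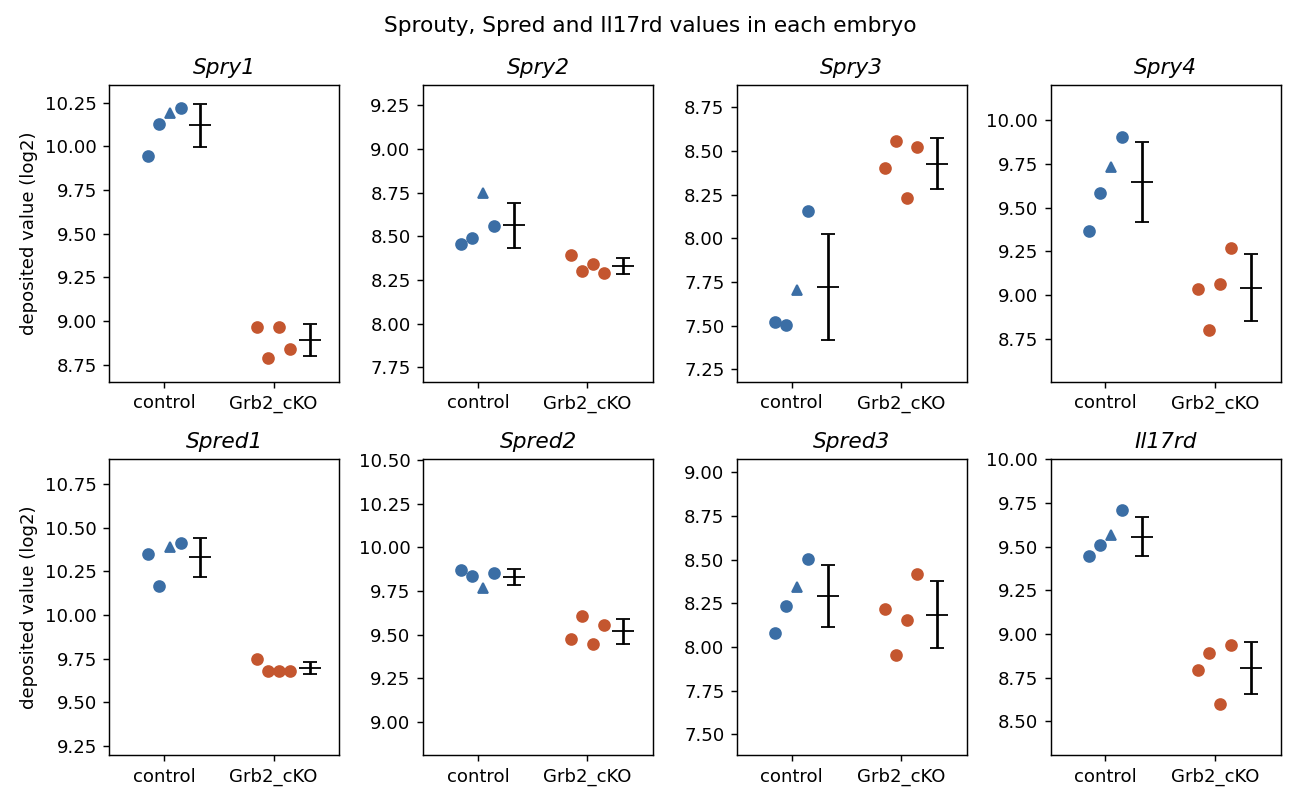
Deposited log2 value (y axis) of each of the 8 genes in the 4 controls (blue) and the 4 Grb2_cKO embryos (orange), with the mean and SD of each group in black. The triangle is control replicate 3, the control with high Y-linked values, and all panels span the same range of log2 units. Spry1 shows the widest gap between the groups, 0.98 log2 units, and Spred3 overlaps.

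Spry1 fell the most. It was at 9.95, 10.1, 10.2 and 10.2 in the controls and at 8.97, 8.79, 8.96 and 8.84 in Grb2_cKO. The lowest control stood 0.98 log2 units above the highest Grb2_cKO kidney, and both groups were tight. The means were 10.1 ± 0.12 and 8.89 ± 0.09 (SD, n = 4 each), a difference of -1.23 (SE 0.08, 95% interval -1.42 to -1.05, adjusted p = 3.22e-05). The Grb2_cKO level was 42.6% of the control level (37.5% to 48.3%), and the gene ranked 52 of 22180 by size of fall. With the Y-linked covariate the difference was -1.30 (adjusted p = 0.0058). Control replicate 3, at 10.2, lay within the range of the other controls.

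Il17rd followed. Its 4 control values were 9.45, 9.51, 9.57 and 9.71, and its Grb2_cKO values were 8.79, 8.89, 8.60 and 8.94. No value of one group reached the other, with a gap of 0.51 log2 units. The difference was -0.75 (SE 0.09, 95% interval -0.96 to -0.55, adjusted p = 0.00038), or 59.4% of the control level. With the covariate it was -0.77 (adjusted p = 0.0295). Against control replicate 3 as the only control it was -0.76 and did not pass (adjusted p = 0.0678).

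Spred1, the gene mutated in Legius syndrome in humans, was at 10.3, 10.2, 10.4 and 10.4 in controls and at 9.75, 9.68, 9.68 and 9.68 in Grb2_cKO. The groups were 0.42 log2 units apart, and 3 of the Grb2_cKO kidneys were nearly identical. The difference was -0.63 (SE 0.07, 95% interval -0.80 to -0.47, adjusted p = 0.00027), which left 64.4% of the control level. With the covariate it was -0.69 (adjusted p = 0.0201).

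Spry4, a Sprouty gene widely used as a readout of FGF signalling, fell by a similar amount but varied more between embryos. It was at 9.37, 9.58, 9.73 and 9.91 in controls and at 9.03, 8.80, 9.06 and 9.27 in Grb2_cKO. The groups were separated by only 0.10 log2 units. The difference was -0.61 (SE 0.13, 95% interval -0.90 to -0.32, adjusted p = 0.0062), or 65.6% of the control level. With the covariate it was -0.70 and did not pass (adjusted p = 0.0964), with an SE of 0.22 in place of 0.13.

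Spred2 showed a smaller fall. Its values were 9.87, 9.84, 9.77 and 9.85 in controls and 9.48, 9.60, 9.45 and 9.55 in Grb2_cKO, with no overlap. The difference was -0.31 (SE 0.07, 95% interval -0.46 to -0.17, adjusted p = 0.0058), or 80.6% of the control level. Control replicate 3 was the lowest control, and with the Y-linked covariate the difference was -0.25 and did not pass (adjusted p = 0.236).

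Spry2, which is known for its part in branching of other epithelia and in the inner ear, lay at the threshold. It was at 8.46, 8.49, 8.75 and 8.56 in controls and at 8.39, 8.30, 8.34 and 8.29 in Grb2_cKO. All Grb2_cKO values were below all control values, by 0.07 log2 units or more, and control replicate 3 was the highest of the 8. The difference was -0.23 (SE 0.08, 95% interval -0.41 to -0.06, adjusted p = 0.05003), or 85.2% of the control level. With the covariate the difference grew from -0.23 to -0.42 (adjusted p = 0.0569), and without control replicate 3 it was -0.17 (adjusted p = 0.123).

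Spred3 was at 8.08, 8.23, 8.34 and 8.50 in controls and at 8.22, 7.95, 8.16 and 8.42 in Grb2_cKO. The groups overlapped over most of their range. The difference was -0.11 (SE 0.12, 95% interval -0.36 to 0.15, adjusted p = 0.575). With the covariate it was -0.16 (adjusted p = 0.713). The interval without it leaves room for a fall to 77.7% or a rise to 111% of the control level.

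Spry3 went the other way from its relatives. It is a Sprouty gene on the X chromosome in the RefSeq gene table. It was at 7.52, 7.50, 7.70 and 8.15 in controls and at 8.40, 8.55, 8.23 and 8.52 in Grb2_cKO. Control replicate 4 stood above the other 3 controls and only 0.08 log2 units below the lowest Grb2_cKO kidney. The difference was 0.71 (SE 0.14, 95% interval 0.39 to 1.03, adjusted p = 0.0048), a rise of 1.63-fold. Control replicate 3, the control with high Y-linked values, stood at 7.70, within the range of the controls with low ones. With the Y-linked covariate the difference was 0.72 and did not pass (adjusted p = 0.122, unadjusted p = 0.0158).

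**Figure D2:**
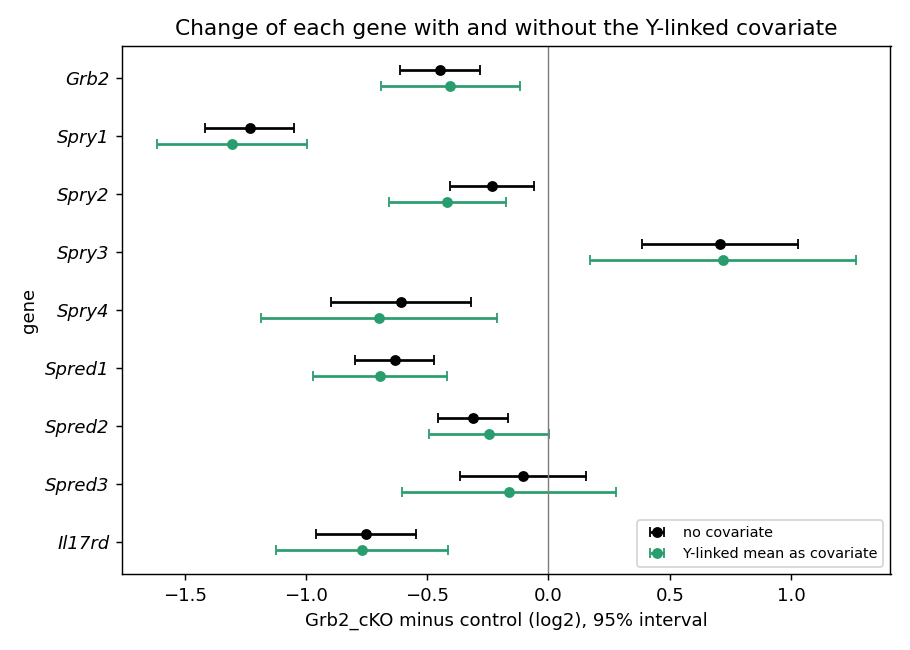
Difference between Grb2_cKO and control in log2 units (x axis) for Grb2 and the 8 genes (y axis), with 95% intervals from limma, without a covariate (black) and with the Y-linked mean as covariate (green). Signs are the same in both fits, intervals are wider with the covariate, and Spry1 lies furthest from 0 at -1.23 and -1.30.

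Whether the genes changed by different amounts was tested on the difference between a pair of them within each embryo, by exact permutation (two-sided) of the group labels. With 70 ways to divide the embryos, the smallest p is 0.0286. Of 28 pairs, 20 differed (adjusted p = 0.04 over the 28 pairs, each at the smallest p). That adjusted value depends on how many pairs reach the smallest p together. The share of pairs of other genes that would differ was not counted, so 20 of 28 is not shown to be particular to these families. This test takes no covariate, so the difference in sex between the groups was not handled in it. In limma with the Y-linked covariate, Spry2 was at -0.42 and Spred2 at -0.25, the reverse of their order without it (-0.23 and -0.31). Spry1 differed from each of the other 7, from Il17rd by -0.48 log2 units, from Spred1 by -0.60, from Spry4 by -0.62 and from Spred2 by -0.92. Spry3 also differed from each of the other 7, by 0.81 from Spred3 and by 1.46 from Il17rd. Within the Spred family, Spred1 fell by 0.32 more than Spred2 and by 0.53 more than Spred3. Spred2 and Spred3 were not separated (-0.21, exact p = 0.2). Spry4, Spred1 and Il17rd were not separated from each other at this number of embryos. The difference between Spry4 and Spred1 was 0.03 (exact p = 0.857), between Spry4 and Il17rd 0.14 (exact p = 0.286), and between Spred1 and Il17rd 0.12 (exact p = 0.286), with SDs within groups of 0.11 to 0.24. Spry2 and Spry4 differed by 0.38 without passing (exact p = 0.0571, adjusted p = 0.0762).

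**Figure D3:**
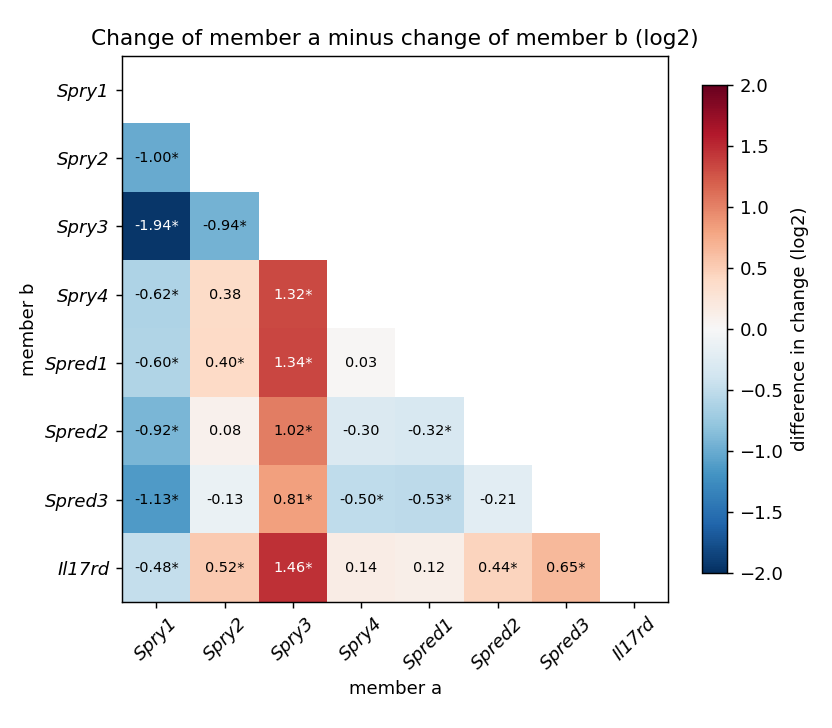
Change of the gene on the x axis minus change of the gene on the y axis, in log2 units, for all 28 pairs, with a star where the exact permutation test adjusted over the 28 pairs passed 0.05. The column of Spry1 is negative throughout, and Spry3 stands apart from each of the other 7.

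Promoter windows from 250 bases before to 50 bases after the start were read from the RefSeq table (GRCm38.p6) for 6 of the 8 genes. Windows of Spry3 and Spry4 were not used, so nothing is said here of the promoter of Spry4, which also fell. The windows of 4 genes that fell are shown because each lies beside a gene that was lower in Grb2_cKO. The amounts of the falls differed in 5 of the 6 pairs among them. Capitals mark a form of ETS site, the letters CGGAAG or their reverse complement CTTCCG. ETS sites are the site class of ETV4 and ETV5, which act downstream of RET. The windows lie at chr3:37639697-37639996 (plus strand) for Spry1, chr2:117120821-117121120 (plus) for Spred1, chr11:19924192-19924491 (plus) for Spred2 and chr14:27038751-27039050 (plus) for Il17rd.
Spry1: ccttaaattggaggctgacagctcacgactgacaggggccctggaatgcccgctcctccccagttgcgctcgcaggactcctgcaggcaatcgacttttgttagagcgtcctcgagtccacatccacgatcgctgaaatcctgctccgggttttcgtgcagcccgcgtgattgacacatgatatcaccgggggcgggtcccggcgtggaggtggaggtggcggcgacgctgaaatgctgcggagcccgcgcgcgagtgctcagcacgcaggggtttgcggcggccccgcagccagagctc
Spred1: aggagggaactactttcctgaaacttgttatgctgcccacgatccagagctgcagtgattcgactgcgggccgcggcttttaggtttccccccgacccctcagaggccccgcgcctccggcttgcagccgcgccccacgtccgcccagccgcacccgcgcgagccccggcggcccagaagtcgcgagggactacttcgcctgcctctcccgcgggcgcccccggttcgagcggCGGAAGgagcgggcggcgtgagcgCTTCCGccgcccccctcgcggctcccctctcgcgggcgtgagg
Spred2: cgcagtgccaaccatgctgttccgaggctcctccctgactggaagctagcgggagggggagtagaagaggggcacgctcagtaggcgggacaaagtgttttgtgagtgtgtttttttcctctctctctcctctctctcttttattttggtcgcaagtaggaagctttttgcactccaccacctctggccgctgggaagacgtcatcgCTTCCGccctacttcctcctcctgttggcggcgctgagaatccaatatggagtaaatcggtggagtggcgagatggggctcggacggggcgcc
Il17rd: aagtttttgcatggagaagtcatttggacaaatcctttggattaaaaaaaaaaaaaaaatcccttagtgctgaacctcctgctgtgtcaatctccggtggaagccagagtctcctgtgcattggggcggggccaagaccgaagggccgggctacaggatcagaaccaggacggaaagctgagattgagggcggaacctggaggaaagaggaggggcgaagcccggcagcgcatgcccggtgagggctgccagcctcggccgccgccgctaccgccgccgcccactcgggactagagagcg

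Spred1 had 2 matches to these letters, beginning 17 bases before the start and at base 8 after it, and Spred2 had 1, beginning 43 bases before the start. Spry1 and Il17rd had none in these windows, nor had Spry2 or Spred3. Shorter or other forms of ETS site were not searched. Of 32851 windows of this length, 16.9% held at least 1 match and 4.15% at least 2. No window of the 6 genes held the AP-1 site TGACTCA (5.2% of all windows), the cyclic AMP response element TGACGTCA (1.79%), the TCF/LEF site CTTTGAT (3.73%) or TATAAA (13.6%), each searched on both strands. The median of all windows was 7 CpG dinucleotides. Spred1 had 40, Spry1 29, Spry2 28, Il17rd 19, Spred2 17 and Spred3 8. A match describes letters in a window and does not show binding.

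The 8 genes stand in a pathway in which parts moved in both directions. The pathway lists below were written with earlier results of these data known, so their counts and medians are descriptive. Over all genes 28.1% passed the threshold, 14.3% lower and 13.7% higher. Of 30 measured ligands and receptors upstream, 10 fell, 9 rose and 11 did not pass, with a median difference of -0.01. With the Y-linked covariate 11 of the 19 changed genes passed, among them Ret at -2.54, Gfra1 at -1.996, Gdnf at -1.71 and Nrg1 at 0.89. Ret, the receptor of the ureteric tip, fell from 9.65 ± 0.12 to 7.19 ± 0.36 (-2.46, SE 0.16, adjusted p = 3.01e-05), its co-receptor gene Gfra1 fell by 1.92 (SE 0.14, adjusted p = 4.33e-05), and Gdnf, their ligand, fell by 1.73 (SE 0.11, adjusted p = 2.97e-05). Nrg1, a ligand of ERBB receptors, rose by 1.01 (SE 0.08, adjusted p = 4.33e-05). Fgfr4 was at -0.04 and Igf1r at 0.01 (adjusted p = 0.85 and 0.924). Set beside these values, the falls of Spry1, Spry4, Spred1, Spred2 and Il17rd ranged from -1.23 to -0.31, and whether they differ in size from that of Ret was not tested.

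Of 28 measured partners that Sprouty, Spred or IL17RD proteins bind or act through, 6 fell, 9 rose and 13 did not pass (median -0.04). The targeted gene Grb2 is on this list and is counted among the 6 that fell and the 15 that changed. Next to Grb2, the docking protein genes Gab2 and Gab1 rose by 0.42 (SE 0.07, adjusted p = 0.0018) and 0.33 (SE 0.06, adjusted p = 0.0033), and Siah1a, which encodes a ubiquitin ligase of a family that degrades Sprouty proteins, fell by 0.53 (SE 0.10, adjusted p = 0.0036). The ubiquitin ligase gene Cbl stood at 0.0032 and the kinase gene Dyrk1a at 0.0056 (adjusted p = 0.981 and 0.961). With the Y-linked covariate 0 of these 15 changed genes passed in limma, and 8 of the 28 had an unadjusted p under 0.05. Gab2 was then at 0.40 (adjusted p = 0.0947), Gab1 at 0.39 (adjusted p = 0.0633) and Siah1a at -0.51 (adjusted p = 0.122).

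Among 24 other genes of negative feedback, 6 were lower, 5 were higher and 13 missed the threshold (median 0.06). The phosphatase genes of ERK and related kinases Dusp6, Dusp5 and Dusp9 fell by 1.11 (SE 0.08, adjusted p = 3.72e-05), 1.09 (SE 0.12, adjusted p = 0.00021) and 0.57 (SE 0.07, adjusted p = 0.00046), and Dok2, an adaptor gene of blood cells, rose by 0.46 (SE 0.07, adjusted p = 0.00097). Dok1 stood at -0.03 and the RAS GTPase-activating gene Rasal1 at 0.02 (adjusted p = 0.81 and 0.878). Of the 11 changed genes 3 passed with the covariate, Dusp6 at -1.10, Dusp5 at -1.08 and Dusp9 at -0.49 (adjusted p = 0.0499), while Dok2 at 0.37 did not (adjusted p = 0.0888).

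Among 14 ERK-responsive genes outside the families, 5 were lower, 2 were higher and 7 missed the threshold (median -0.12). The ETS factor genes Etv4 and Etv5 fell by 1.49 (SE 0.14, adjusted p = 0.00011) and 1.33 (SE 0.13, adjusted p = 0.00013). Epha2, an ephrin receptor gene, fell by 0.41 (SE 0.08, adjusted p = 0.0039) and the cyclin gene Ccnd1 by 0.33 (SE 0.07, adjusted p = 0.0068). The immediate early gene Fos was at 0.0043 and Epha4 at -0.0011 (adjusted p = 0.984 and 0.994). With the covariate 2 of the 7 changed genes passed, Etv4 at -1.39 and Etv5 at -1.53. Epha2 at -0.31 (adjusted p = 0.206) and Ccnd1 at -0.35 (adjusted p = 0.144) did not.

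**Figure D4:**
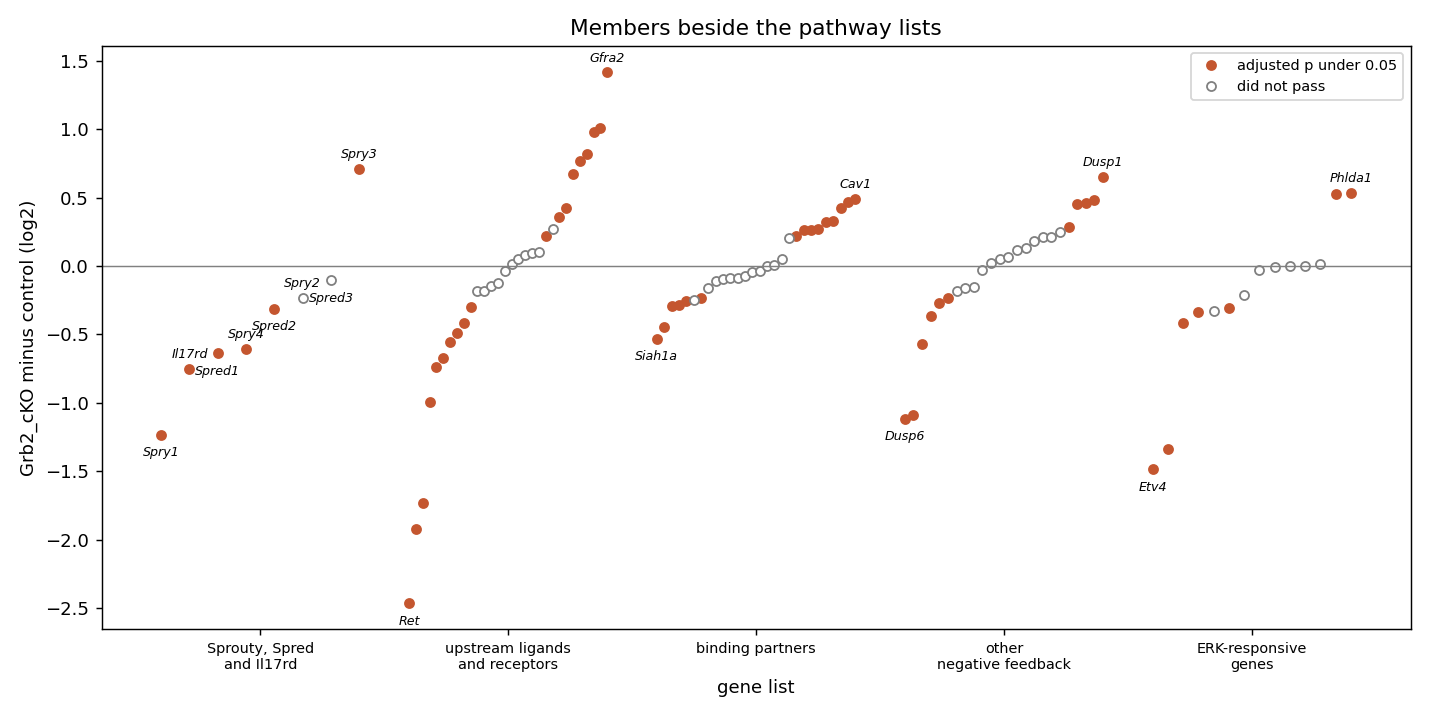
Difference between Grb2_cKO and control in log2 units (y axis) for the 8 genes and for each gene of 4 pathway lists (x axis), sorted within a list, with filled points past the adjusted p threshold and open points not past it. Each list has genes on both sides of 0, and Spry1 at -1.23 lies near Dusp6 at -1.11 and Dusp5 at -1.09.

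The genes whose profile was most like that of each changed member were found by the root mean square difference over the 8 arrays, after the mean of the controls was taken from each gene. This measure follows the size of the change first, and all arrays share 1 litter and 2 groups. For Spry1 they were Ism1, a secreted isthmin, at 0.104 log2 units, Dusp6 at 0.105 and the homeobox gene Hoxb9 at 0.128. Of the other 7 members Il17rd was nearest to Spry1, at 0.369. It ranked 205 among the genes kept for this search, which left out predicted, small RNA and receptor cluster genes. For Il17rd they were the endocytic receptor gene Ly75 at 0.0608, Rragd, a RAG GTPase gene, at 0.0652, and Cad, of pyrimidine synthesis, at 0.0674. For Spred1 they were the mitochondrial ribosomal protein genes Mrps5 at 0.0473 and Mrpl18 at 0.0526, and the phosphatase gene Ppm1g at 0.0546. For Spry4 they were Mrpl11 at 0.0794, Hoxb8 at 0.0892 and the G protein gene Gnaz at 0.0935. For Spred2, whose change was small, they were Stard3nl at 0.0114, Zfyve9 at 0.0207 and the actin regulator gene Enah at 0.0279. For Spry3 they were the microtubule-linker gene Clip3 at 0.107, the retinoic acid-binding protein gene Crabp2 at 0.107 and the mesenchymal transcription factor gene Twist1 at 0.114. No member was among the 3 nearest genes of another.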

How the data were processed

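The authors deposited 1 log2 value per array for each of 41345 probe sets. The Transcriptome Analysis Console is the tool named in the submitters' processing notes, without a version; the sources used here do not give how background, summarization or normalization was handled. That the unit is log2 follows from the range, 1.25 to 14.1 with array medians of 6.61 to 6.72. No detection calls or batch records were used here. Probe sets with 1 symbol (23521; 1814 had several and 16010 none) were named through the platform annotation, with symbols updated by Entrez identifier to RefSeq GRCm38.p6, and the brightest stood for a gene.

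Groups were compared in limma 3.58.1 (R 4.3.3, lmFit and eBayes, no covariate) on all 8 arrays, and the fit was tested on simulated data. Changes are Grb2_cKO minus control. Replicate numbers follow the order of the sample records and pair nothing. Genes named were the 8 members, Grb2, per pathway list the 4 of smallest and 2 of largest p, and the 3 nearest profiles per changed member, without predicted, small RNA and receptor cluster genes. Members and lists were chosen with earlier results of these data known. Of 104 genes on the pathway lists 96 were measured; the remainder was not analysed here. Tried besides were quantile normalization, median centring of arrays, dropping the dimmest genes, averaging probe sets, testing every probe set, a trended and robust spread, weights per array, the Y-linked covariate, control replicate 3 alone as control, a threshold of 0.01, and dropping each embryo. The closing section gives their effect.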

Additional observations from a re-analysis of the deposited data

Results flagged for a closer look

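Spred1 in Grb2_cKO replicate 1, at 9.75, stood apart from the other 3 Grb2_cKO kidneys, which lay between 9.677 and 9.680. The gap was 0.956 of the group's range, and the other 3 were nearly identical. The value remained below every control. It was the only lone value among 64 groups of 4 checked, of which chance would set apart about 1 in 20.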

How the results depend on the processing

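Over 18 alternatives no difference of Grb2 or of the 8 genes changed sign. Spry1 stayed between -1.30 and -1.20 and Spred1 between -0.70 and -0.61, both past the threshold each time, and Spred3 never passed (-0.18 to -0.03). With the Y-linked mean as covariate 1246 of 22180 genes passed in place of 6227, and 3 of the 8 were lower and 0 higher. Grb2 (-0.40), Spry3 (0.72), Spry4 (-0.70) and Spred2 (-0.25) then missed the threshold. With control replicate 3 as the only control, which is assumed to vary like the Grb2_cKO embryos, 285 genes passed, and 2 of the 8 were lower and 0 higher. Grb2 (-0.41), Spry3 (0.73, unadjusted p = 0.0027), Spry4 (-0.69), Spred2 (-0.25) and Il17rd (-0.76) missed it. Both settings leave fewer embryos to carry the comparison. At an adjusted p under 0.01, 3809 genes passed. Spry2 passed without the dimmest genes (-0.23, adjusted p = 0.0308), with a trended and robust spread (-0.23, 0.0392) and without control replicate 1 (adjusted p = 0.0434), while leaving out each embryo in turn gave -0.27 to -0.17. Between 17 and 20 of the 28 pairs of genes differed across 11 alternatives, which did not include the Y-linked covariate. No paired analysis was possible because the labels give no replicate numbers. The number of arrays, 4 in each group, limits the precision, and levels near background could not be recognised.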

Other observations

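Spry4 and Spred3 varied together from embryo to embryo, although one fell and the other did not pass. Spry4 had an SD of 0.23 in controls and 0.19 in Grb2_cKO, and Spred3 0.18 and 0.19, while the difference between them within an embryo had an SD of 0.05 and 0.04. That difference, Spry4 minus Spred3, ran from 1.28 to 1.40 in controls and from 0.82 to 0.90 in Grb2_cKO. The pair was chosen after the values were seen, out of 28 pairs, and is given without a test. In controls the difference also varied little for Spry1 and Il17rd (SD 0.067), Spred3 and Il17rd (0.071), and Spry1 and Spred3 (0.080). In Grb2_cKO these SDs were larger, at 0.23, 0.22 and 0.19. From control replicate 1 to 4 Spry4 and Spred3 both rose in order, while the array median fell (6.72, 6.69, 6.67 and 6.61). The medians of Grb2_cKO replicates 1 to 4 fell too (6.70, 6.69, 6.68 and 6.64), but there replicate 2 was lowest for both genes. Control replicate 4, in which both were highest, had the lowest array median (6.61), and it held the highest control value for 6 of the 8 genes. The part of the array median in this was not tested.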
